A study of Mus musculus with 24 samples.

Results

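The genes described here are 42 genes of mouse that type I interferon is known to induce. They were chosen by symbol from a fixed list of members of the interferon response, and all 42 are among the 48526 genes of the count tables. All 42 also passed the filter on low counts and are therefore among the 14560 genes tested. The RNA came from cells labelled as CD8+ T cells of OT-1 mice (a Jackson stock), a strain with a transgenic T-cell receptor that recognises ovalbumin peptide on CD8 T cells; the library kit selects poly-A RNA and keeps its strand. Spleen cells were cultured with peptide at 2 µg/mL, which every group received, and T cells were isolated by negative selection at 24 h or 72 h. The OVA groups had peptide alone, and the TLR2 and TLR7 groups also had an agonist of the named Toll-like receptor, added 1 h before the peptide, so that there were 6 groups of 4 libraries. For TLR2 the protocol lists Pam3CSK4 at 300 ng/mL; for TLR7 it lists both gardiquimod at 3 µg/mL and R848 at 10 µg/mL, without saying which one these cultures had. The labels also do not state the age of the mice or whether replicates came from separate mice or cultures, so a p-value here reflects the spread among these libraries, which may be technical. The agonist was given to whole spleen cultures, so the T cells shared the dish with antigen-presenting cells until isolation.

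By role the members were 3 transcription factors (Stat2, Irf9, Irf7); 6 nucleic acid sensors and their regulators (Ddx58, Ifih1, Dhx58, Zbp1, Trim25, Eif2ak2); 3 IFIT genes (Ifit1, Ifit2, Ifit3) and 5 OAS genes (Oas1a, Oas2, Oas3, Oasl1, Oasl2). Another 10 were antiviral effectors of other kinds (Mx1, Mx2, Rsad2, Cmpk2, Bst2, Isg20, Trim30a, Samd9l, Helz2, Rnf213), 3 belonged to the ISG15 system (Isg15, Usp18, Herc6), 3 to ADP-ribosylation (Parp9, Parp14, Dtx3l) and 9 were further induced genes (Xaf1, Rtp4, Ifi44, Ifi35, Ifi27l2a, Sp100, Lgals3bp, Epsti1, Tor3a).

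Type I interferons are secreted proteins that bind the receptor IFNAR1–IFNAR2 on nearly all cells. The receptor's kinases JAK1 and TYK2 phosphorylate STAT2, which joins IRF9 in the complex ISGF3. ISGF3 binds the interferon-stimulated response element (ISRE) in the promoters of a large set of genes whose products sense viral nucleic acid, block viral replication or adjust the response itself. TLR7, an endosomal receptor for single-stranded RNA, leads to type I interferon production in plasmacytoid dendritic cells and other cells, whereas TLR2, a surface receptor for lipoproteins, is better known for activating NF-kB. CD8 T cells carry the interferon receptor, and interferon received during priming is known to affect their expansion.

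Of the 42 members, 31 have a promoter in the RefSeq table for GRCm38.p6, which covers 250 bases before and 50 after each annotated start. The core of the ISRE was searched as GAAANNGAAA on both strands, with overlapping matches allowed. It occurred in at least 1 promoter of 12 of these 31 members, against 1079 of 27025 genes (3.99%), or 3.44% of all 32851 promoters of the same length. The 9 members below held a match upstream of the start. Their windows are shown because these members include several whose levels moved most, and because they let the spacing of the repeats be compared. Each is written 5′ to 3′ on the gene's own strand, and the capitals mark the match (TTTCNNTTTC where it lies on the opposite strand).
Ifit1 (chr19:34640765-34640833, plus strand): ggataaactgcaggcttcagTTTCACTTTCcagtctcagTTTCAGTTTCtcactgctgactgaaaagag
Ifit3 (chr19:34583353-34583436, plus strand): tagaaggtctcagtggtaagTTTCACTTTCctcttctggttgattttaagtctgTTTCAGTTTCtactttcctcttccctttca
Isg15 (chr4:156200855-156200916, minus strand): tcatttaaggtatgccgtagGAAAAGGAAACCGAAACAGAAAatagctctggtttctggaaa
Oas1a (chr5:120907526-120907565, minus strand): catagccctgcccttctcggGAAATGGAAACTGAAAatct
Oas3 (chr5:120777705-120777754, minus strand): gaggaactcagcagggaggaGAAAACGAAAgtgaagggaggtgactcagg
Rsad2 (chr12:26456543-26456592, minus strand): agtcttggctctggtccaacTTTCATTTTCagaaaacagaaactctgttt
Bst2 (chr8:71537567-71537622, minus strand): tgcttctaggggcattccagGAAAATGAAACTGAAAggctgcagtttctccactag
Trim30a (chr7:104465200-104465249, minus strand): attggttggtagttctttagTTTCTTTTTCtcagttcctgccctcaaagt
Stat2 (chr10:128270256-128270305, plus strand): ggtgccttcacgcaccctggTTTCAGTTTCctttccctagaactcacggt
Ifit1 and Ifit3, neighbours on chromosome 19, each held 2 separate matches, and Isg15 held 3 overlapping ones in 1 run. In Ddx58, Eif2ak2 and Ifih1 the only match lay after the annotated start. The core of the gamma-activated site, TTCNNNGAA, an element of the interferon-gamma response, occurred in 6 of the 31 members, against 2582 of 27025 genes (9.55%). A match describes letters only, and its absence says no more than that these letters are not in the window.

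Library totals ran from 10506711 to 27064067 counts, and levels are given as CPM, counts scaled to library size. Totals were at most 11745580 in 5 libraries, called shallow below, and at least 21503040 in the others. The shallow ones were replicates 1 and 2 of TLR7 at 72 h, replicate 2 of TLR7 at 24 h and, at the same time, replicate 4 of both OVA and TLR2; a count of 3 was 0.286 CPM in the shallowest. On the first principal component of all tested genes, which held 60.2% of the variance and set the other 24 h libraries (85.2 to 99.1) apart from the other 72 h libraries (-90.5 to -56.5), 8 libraries lay between (-20.5 to -1.21), those of the 2 times intermingled. Called middle below, they were at 24 h replicates 1 and 3 of OVA with replicates 3 and 4 of TLR7, and at 72 h replicate 4 of OVA with replicates 1, 3 and 4 of TLR2. The labels do not say why they lie there, and whether their labelled time and group hold was not tested, so each value that includes them carries that doubt. Counts of members are therefore given with and without each set, dropping all of its libraries from the fit. The CD8 T cell markers summed to 1045 to 3314 CPM per library and those of CD4 T cells to 1.32 to 23.5 CPM. The lowest CD8 sums were those of TLR7 24 h replicates 1 and 2, at 1045 and 1136 CPM. Replicates 3 and 4 of that group, both middle, had 2374 and 2053 CPM, and TLR2 at 24 h had 1446 to 1660 CPM. The part of this in the members' levels was not tested. In bulk RNA, fewer cells of a type and less RNA per cell cannot be told apart.

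Summarised as the mean log2 CPM over the 42 members, the module stood highest in OVA at 72 h and in TLR7 at 24 h and lowest in TLR2 at 24 h. The score was 3.80 ± 0.48 in OVA, 3.05 ± 0.58 in TLR2 and 4.44 ± 0.44 in TLR7 at 24 h (SD, n = 4 each). At 72 h it was 4.52 ± 0.17 in OVA, 3.39 ± 0.39 in TLR2 and 3.52 ± 0.48 in TLR7. The order of the groups thus changed with time. At 24 h every TLR7 library (3.94 to 4.86) lay above every TLR2 library (2.30 to 3.57), and the OVA libraries (3.14 to 4.21) overlapped both. At 72 h every OVA library (4.36 to 4.68) lay above every TLR2 library (2.94 to 3.82) and every TLR7 library (3.26 to 4.23). The TLR7 libraries at 72 h were at 4.23 in replicate 1 and at 3.26 to 3.29 in replicates 2 to 4. Without the middle libraries the means at 24 h were 3.44 in OVA and 4.49 in TLR7, and that of OVA at 72 h was 4.58. The shallow replicate 4 was the lowest library of OVA and of TLR2 at 24 h (3.14 and 2.30), and without the shallow libraries the group means were 4.01 and 3.30. In TLR7 at 24 h replicate 4 was also the lowest (3.94), and it was not shallow. The part of depth in these levels was not tested.

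**Figure D1:**
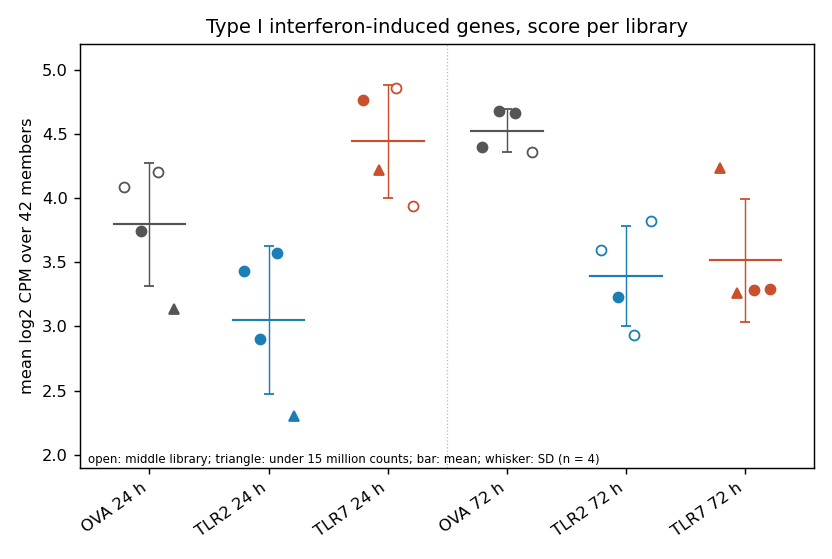
Mean log2 CPM over the 42 members (vertical axis) in each of 24 libraries, by group (horizontal axis), with the group mean (bar) and SD (whisker, n = 4); open points are middle libraries and triangles are the 5 shallow libraries. The 4 TLR7 libraries at 24 h (3.94 to 4.86) sit above the 4 TLR2 libraries (2.30 to 3.57), and the 4 OVA libraries at 72 h (4.36 to 4.68) sit above all 8 agonist libraries of that time.

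Single members followed the same 2 peaks. The highest group mean was that of OVA at 72 h for 23 members, of TLR7 at 24 h for 15, of OVA at 24 h for 3 and of TLR2 at 24 h for 1. The lowest was TLR2 at 24 h for 26 members, TLR7 at 72 h for 9 and TLR2 at 72 h for 7. Per kilobase of exon, Ifi27l2a, which encodes a small hydrophobic protein, was the most abundant member in 5 of the 6 groups, with 527 CPM per kb in OVA at 72 h. Bst2, which encodes tetherin, a membrane protein that holds budding virions at the cell surface, came next at 54.4 CPM per kb in that group and led in TLR2 at 24 h with 54.7 CPM per kb. Ifi44 had the lowest level per kb in 5 groups, with 0.48 CPM per kb in TLR7 at 24 h. Ifi27l2a belongs to a family of closely related copies, so its counts are uncertain where reads could be split.

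**Figure D2:**
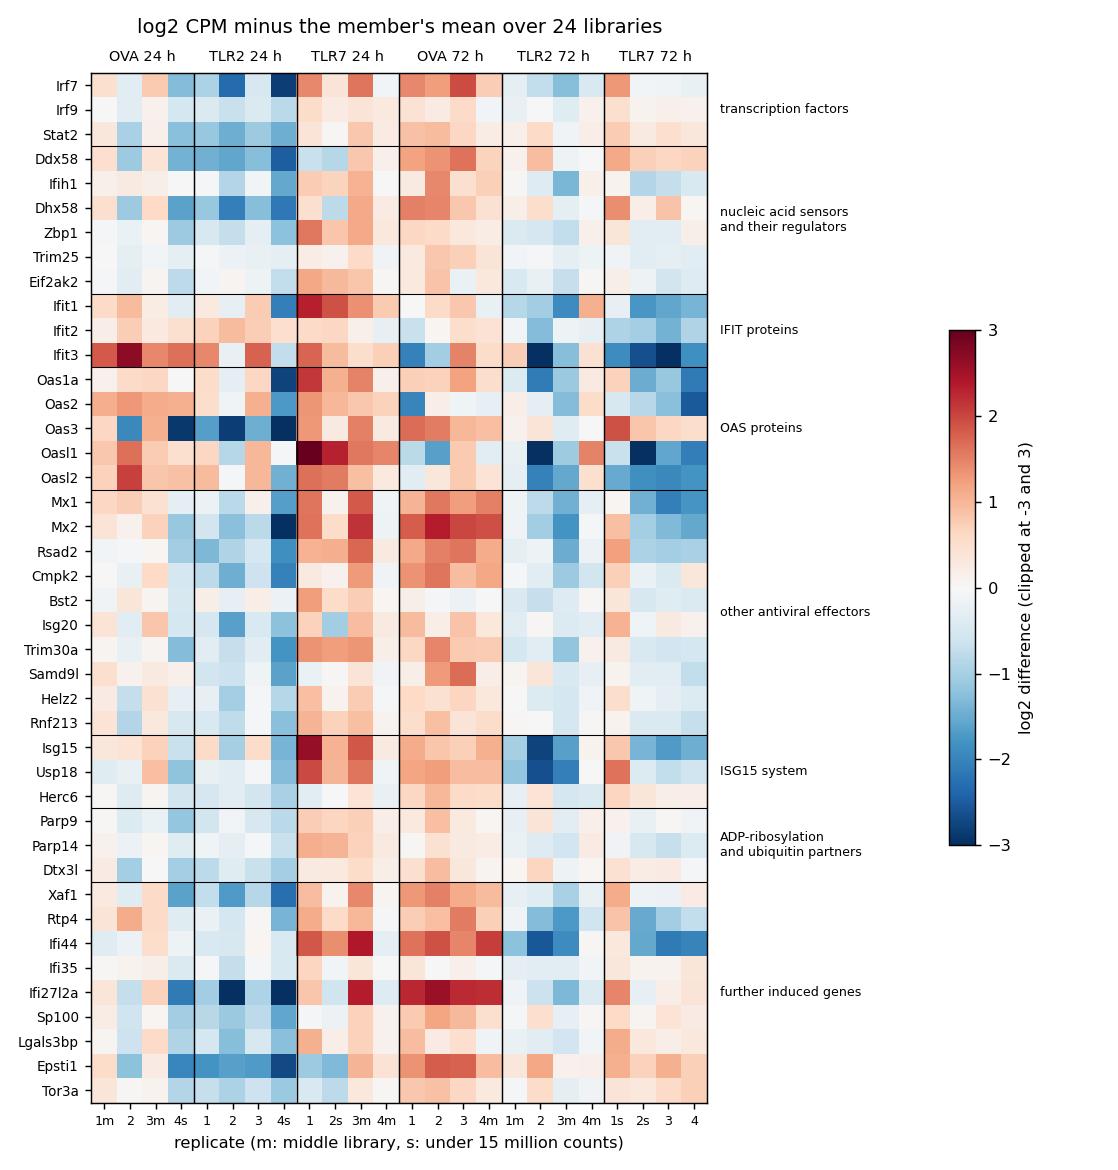
Each row is a member, ordered by role, and each column a library; colour is log2 CPM minus the member's mean over the 24 libraries, clipped at -3 and 3 (red above, blue below). Red rows gather in TLR7 at 24 h and OVA at 72 h, and in TLR7 at 72 h replicate 1 is redder than replicates 2 to 4 for members such as Irf7, Isg15, Usp18 and Rsad2.

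At 24 h the agonists were compared first with each other. With TLR7, 17 members were higher than with TLR2 and 0 were lower, where 1.24% of all tested genes passed in either direction (0.632% higher and 0.604% lower). The members' median log2 fold change was 1.35, against 0.02 over all genes tested, and 41 of 42 values were positive. The libraries of the 2 groups did not overlap for 25 members, all higher with TLR7, against 5.5% of all genes higher and 8.51% lower. By role, all 3 transcription factors, all 3 genes of the PARP9 complex and its relative, 2 of 6 sensors, 1 of 5 OAS genes, 4 of 10 other antiviral effectors and 4 of 9 further genes passed; 0 of 3 IFIT genes and 0 of 3 genes of the ISG15 system did.

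The 3 transcription factors carry the response itself. Stat2, the signal transducer of ISGF3, stood at 52.1, 40.8, 69.5 and 46.9 CPM in replicates 1 to 4 of TLR7 and at 18, 14.3, 18.7 and 14.3 CPM in those of TLR2. The groups were far apart, and the log2 fold change was 1.68 (SE 0.28, edgeR adjusted p = 0.0171). Its partner Irf9 stood at 86.0, 69.5, 76.5 and 70.9 CPM with TLR7 and at 43.2, 36.7, 42.8 and 33.2 CPM with TLR2, a log2 difference of 0.96 (SE 0.16, edgeR adjusted p = 0.0171). Irf7, the factor that amplifies transcription of interferon-alpha genes, stood at 32.6, 15.6, 36.5 and 11.2 CPM with TLR7 and 6.14, 2.33, 8.51 and 1.61 CPM with TLR2. The lowest TLR7 library was middle replicate 4, still above every TLR2 library, and the log2 fold change was 2.34 (SE 0.53, edgeR adjusted p = 0.0302). Irf7 overlaps Phrf1 on the opposite strand and Irf9 overlaps Rnf31 on the same strand. Which strand setting the counting used is not given in the sources at hand, so some reads of both genes may be shared.

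Among the effectors the largest difference was in Oas3, an enzyme that makes 2′-5′ oligoadenylates to activate RNase L and whose promoter holds a single match (above). It stood at 57.1, 27.6, 65.4 and 27.5 CPM with TLR7 and at 7.27, 3.17, 8.27 and 2.06 CPM with TLR2, a log2 difference of 3.07 (SE 0.64, edgeR adjusted p = 0.0227). In OVA at 24 h the same gene stood at 35.2, 5.95, 47.9 and 3.00 CPM, so that its 2 high libraries were the middle ones, replicates 1 and 3, and its low ones lay in the range of TLR2. Replicates 1 and 3 were also the higher ones with TLR7 and with TLR2. In TLR7 the middle libraries were replicates 3 and 4, and TLR2 had none at 24 h. Ifi27l2a stood at 86.8, 31.9, 248 and 37.1 CPM with TLR7 and 23.5, 4.14, 25.4 and 4.12 CPM with TLR2 (log2 fold change 2.81, SE 0.69, adjusted p = 0.0481). Its highest TLR7 value was that of middle replicate 3, and without the middle libraries the log2 fold change of Ifi27l2a was 2.09 (adjusted p = 0.151). Rsad2, which encodes viperin, an enzyme that makes a chain-terminating nucleotide, stood at 5.14, 5.34, 8.35 and 3.01 CPM with TLR7 and 0.919, 1.28, 1.67 and 0.626 CPM with TLR2 (log2 fold change 2.25, SE 0.48, adjusted p = 0.0263). The 2 groups did not overlap for Rsad2. Its neighbour Cmpk2, a nucleotide kinase of mitochondria, differed by 1.66 (SE 0.37, edgeR adjusted p = 0.0302). Trim30a, a tripartite-motif protein that restrains NF-kB signalling, stood at 206, 193, 205 and 91.1 CPM with TLR7 and 64.0, 50.3, 64.8 and 23.3 CPM with TLR2 (log2 fold change 1.78, SE 0.36, adjusted p = 0.0205). Zbp1, a sensor of Z-form nucleic acid, stood at 157, 93.4, 116 and 66.0 CPM with TLR7 and 37.9, 31.9, 43.1 and 22.3 CPM with TLR2 (log2 fold change 1.68, SE 0.28, adjusted p = 0.0171). For both genes the TLR7 libraries lay wholly above those of TLR2, with replicate 4 lowest.

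Differences also passed for Parp9 (1.05), Parp14 (1.06) and Dtx3l (1.02), an ADP-ribosyltransferase family pair and a ubiquitin ligase that lie together on chromosome 16, and for Rnf213 (1.29), Sp100 (1.23), Lgals3bp (1.41), Dhx58 (2.02) and Xaf1 (2.02). Parp9 and Dtx3l overlap on opposite strands, so they are not independent if reads were shared. Dhx58 encodes LGP2, which tunes RIG-I-like sensing, and Xaf1 a partner of apoptosis inhibitors. The IFIT genes, which encode proteins that bind viral RNA, did not pass. Ifit1 stood at 11.2, 8.39, 5.75 and 3.81 CPM with TLR7 and 2.67, 1.80, 3.71 and 0.447 CPM with TLR2, which did not overlap (log2 fold change 1.72, adjusted p = 0.108). Ifit3 stood at 7.03, 4.01, 2.94 and 3.39 CPM and 5.68, 1.72, 7.08 and 1.16 CPM, which overlapped (log2 fold change 0.14, adjusted p = 0.928). Isg15, the ubiquitin-like modifier, ranged from 10.5 to 53.3 CPM with TLR7 and from 3.22 to 13.0 CPM with TLR2 (log2 fold change 1.76, adjusted p = 0.124), and its protease Usp18 from 4.38 to 19.1 CPM and from 1.88 to 4.64 CPM (log2 fold change 1.72, adjusted p = 0.116).

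The count of 17 depended on single libraries. It was 0 without TLR2 24 h replicate 1 or replicate 4, where 0 of all genes passed in either fit. Without TLR2 replicate 2 or 3 it was 5 or 7, where 49 or 39 of all genes passed. Without TLR7 replicates 1 to 4 in turn it was 19, 24, 7 and 11, where 531, 629, 118 and 31 did. It was 14 without the middle libraries (1.29% of all genes) and 0 without the shallow ones, where 0 of all genes passed. The median stayed positive at 1.37 without the middle and 1.26 without the shallow libraries. B cell markers summed to 25.0 to 45.6 CPM in TLR7 and 114 to 157 CPM in TLR2 at 24 h, and their part in these differences was not tested.

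Against peptide alone at 24 h, neither agonist gave a member that passed. With TLR7, 0 of 42 passed, where 0.22% of all genes did (0.151% higher and 0.0687% lower). An unadjusted p under 0.05 was found for 17 members, against 10.1% of all genes. DESeq2 called 5, all higher, where it called 1.67% of all genes. The median log2 fold change was 0.67 and 36 values were positive, against 46.1% of all genes. The libraries did not overlap for 6 members, all higher, against 3.61% of all genes higher and 3.02% lower. Zbp1 stood at 51.7, 46.1, 55.3 and 24.7 CPM with OVA, and the TLR7 libraries given above all lay higher (log2 fold change 1.28, adjusted p = 0.0511). Trim30a stood at 86.0, 69.4, 85.4 and 33.1 CPM with OVA (log2 fold change 1.34, adjusted p = 0.104) and Rsad2 at 2.32, 2.36, 2.56 and 1.15 CPM (log2 fold change 1.36, adjusted p = 0.236), each again below every TLR7 library. The largest value among members of at least 5 CPM was that of Isg15, at 11.0, 11.6, 14.1 and 5.39 CPM with OVA and 53.3, 18, 32.0 and 10.5 CPM with TLR7 (log2 fold change 1.43, adjusted p = 0.414), and its TLR7 replicate 4 was within the OVA range. Both groups contained 2 middle libraries. Without the middle libraries 11 members passed, all higher, where 2.52% of all genes did, and the median was 1.37. Without TLR7 replicate 3 or 4 the count was 2 or 3, where 146 or 31 of all genes passed. B cell marker sums were 94.8 to 245 CPM in OVA at 24 h, above all TLR7 libraries.

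With TLR2 at 24 h, 0 members passed and 0% of all genes did. The median was -0.72, with 39 negative values, and 16 members had an unadjusted p under 0.05, against 15.2% of all genes. DESeq2 called 5, all lower, where it called 2.37% of all genes. The largest values among members of at least 5 CPM were those of Oas3 (log2 fold change -2.13, adjusted p = 0.176), Epsti1 (log2 fold change -1.65, adjusted p = 0.179) and Ifi27l2a (log2 fold change -1.65, adjusted p = 0.264). These members were all high in the middle OVA replicates 1 and 3. The libraries did not overlap for 3 members, Ifih1, Cmpk2 and Samd9l, all lower with TLR2, against 3.02% of all genes higher and 3.12% lower. Epsti1, a gene described as induced by stromal contact, stood at 57.3, 16.6, 46.2 and 9.90 CPM with OVA and 11.1, 12.4, 12 and 5.91 CPM with TLR2. Without the middle libraries the median was -0.25 and the value of Oas3 turned to 0.22. Without OVA replicate 2, 6 members were lower with TLR2, where 546 of all genes passed, 12 of them higher. OVA at 24 h then held its middle replicates 1 and 3 and the shallow replicate 4. Replicate 2 had the highest neutrophil and B cell marker sums of its group (105 and 245 CPM), and their part was not tested.

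**Figure D3:**
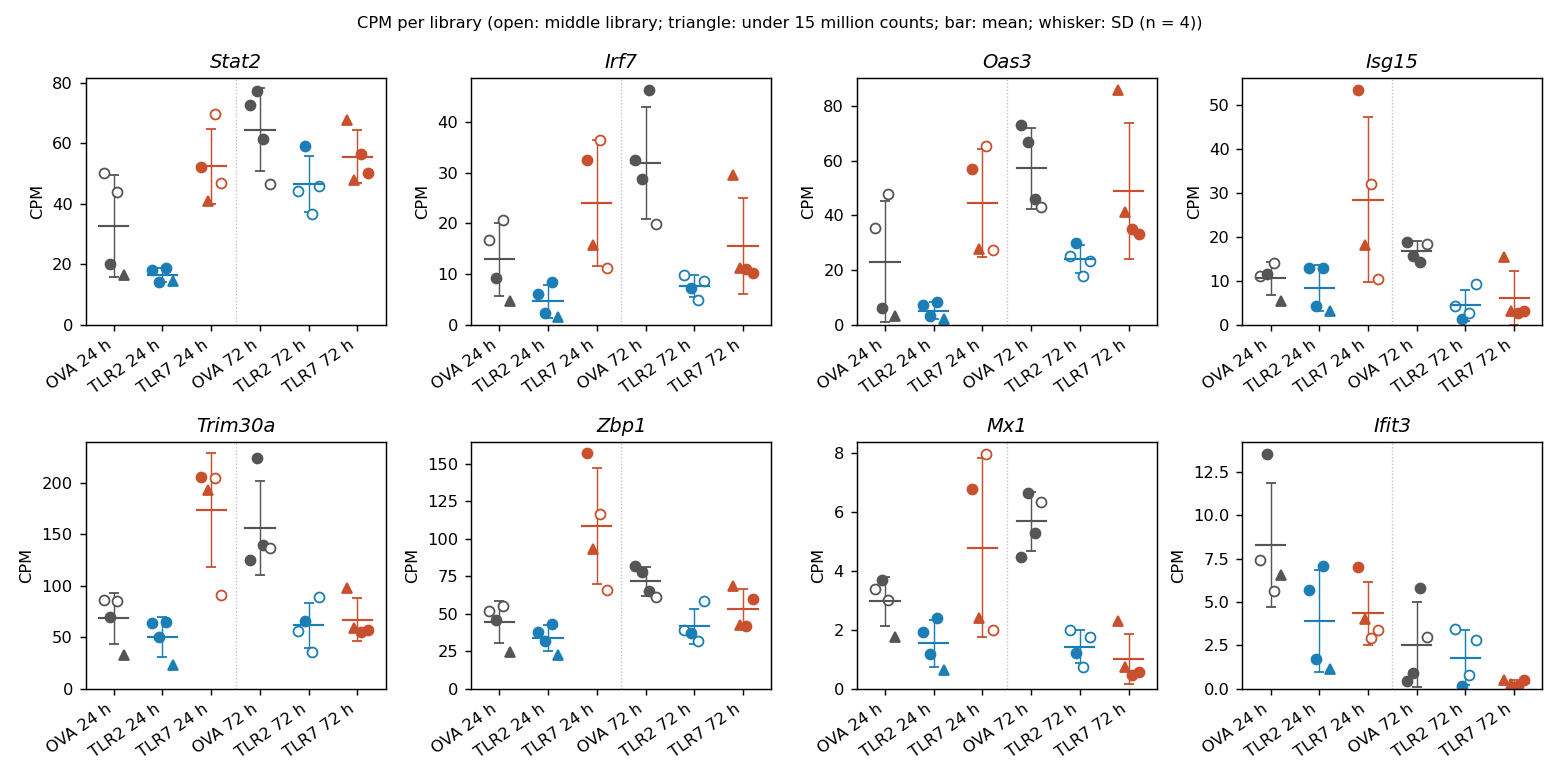
CPM (vertical axes, from 0) of 8 members in each library, by group, with mean (bar) and SD (whisker, n = 4); open points are middle libraries and triangles the 5 shallow libraries. In OVA at 24 h Stat2 and Oas3 are high in the middle replicates 1 and 3 and low in the others. Replicates 1 and 3 are also the higher ones in TLR2 and TLR7 at 24 h for both genes. Trim30a and Zbp1 peak in TLR7 at 24 h, Mx1 is high in OVA at 72 h, and Ifit3 is below 1 CPM in all 4 TLR7 libraries at 72 h.

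At 72 h several members stood lower with TLR7 than with peptide alone. With TLR7, 8 members were lower and 0 higher, where 3.62% of all genes passed (0.412% higher and 3.21% lower). The median log2 fold change was -0.85, against -0.08 over all genes, and 40 of 42 values were negative. The libraries did not overlap for 14 members, all lower, against 3.41% of all genes higher and 5.29% lower. The 8 were Mx1, Mx2, Ifi44, Oasl2, Samd9l, Ifit2, Ifih1 and Trim25, and by role they were 3 of 10 other effectors, 2 of 6 sensors, 1 of 3 IFIT genes, 1 of 5 OAS genes and 1 of 9 further genes. None of the 17 members that passed between TLR7 and TLR2 at 24 h was among them. This concerns the threshold only, since 40 of all 42 values at 72 h were negative. The overlap over all genes was not counted.

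Mx1, a gene of the dynamin-like GTPase family, stood at 4.46, 6.63, 5.28 and 6.34 CPM in OVA replicates 1 to 4 and 2.28, 0.744, 0.448 and 0.569 CPM in those of TLR7. The groups did not overlap, replicate 1 being the highest of TLR7, and the log2 fold change was -2.57 (SE 0.53, edgeR adjusted p = 0.0101). Mx2, its neighbour, annotated as a polymorphic pseudogene in GENCODE M21, stood at 4.76, 6.93, 5.37 and 5.14 CPM and 2.47, 0.579, 0.448 and 0.379 CPM (log2 fold change -2.61, SE 0.67, adjusted p = 0.0337). Ifi44, a gene of uncertain function, stood at 2.95, 3.59, 2.64 and 4.02 CPM with OVA and 1.14, 0.248, 0.135 and 0.152 CPM with TLR7 (log2 fold change -3.15, SE 0.68, adjusted p = 0.0125). In TLR7 replicates 2 to 4 the values of Ifi44 were near the level of 3 counts, which limits the precision of its fold change. Oasl2, an OAS-like protein, stood at 1.85, 2.96, 4.05 and 3.11 CPM and 0.76, 0.579, 0.538 and 0.607 CPM (log2 fold change -2.27, SE 0.57, adjusted p = 0.0299).

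Trim25, the ubiquitin ligase that activates RIG-I, was the most abundant of the 8 and had the smallest fold, at 142, 204, 193 and 154 CPM with OVA and 109, 92.6, 96.0 and 92.7 CPM with TLR7 (log2 fold change -0.83, SE 0.14, adjusted p = 0.00389). Ifih1, which encodes the double-stranded RNA sensor MDA5, stood at 9.68, 22, 11.2 and 13.1 CPM and 8.64, 4.3, 4.80 and 5.80 CPM, with no overlap (log2 fold change -1.25, SE 0.35, adjusted p = 0.0495). Ifit2 stood at 6.52, 11.0, 15.1 and 14.2 CPM and 5.51, 5.12, 3.90 and 5.57 CPM (log2 fold change -1.22, SE 0.27, adjusted p = 0.0149). Samd9l, a translation inhibitor, stood at 24.5, 53.2, 70.5 and 25.1 CPM and 23.6, 17.4, 17.3 and 13.0 CPM (log2 fold change -1.28, SE 0.31, adjusted p = 0.0263), with high values in OVA replicates 2 and 3. Among those that did not pass, Irf9 stood at 72.4 ± 13.9 CPM with OVA and 68.2 ± 9.06 CPM with TLR7 (SD, n = 4 each), a value of -0.09 (adjusted p = 0.842). Lgals3bp stood at 59.5 ± 18 and 63.3 ± 20.6 CPM (log2 fold change 0.09, adjusted p = 0.923) and Stat2 at 64.4 ± 13.7 and 55.5 ± 8.85 CPM (log2 fold change -0.22, adjusted p = 0.746).

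The count of 8 was 4, 3 and 4 without OVA 72 h replicates 2, 3 and 4 (308, 278 and 214 of all genes). It was 1, 5 and 1 without TLR7 72 h replicates 2, 3 and 4 (133, 545 and 92). Without replicate 1 of OVA or of TLR7 at 72 h it was 10 or 6 (1370 or 100). It was 6 without the 8 middle libraries (1.63% of all genes) and 1 with only these groups fitted (0.219%). Once all 5 shallow libraries were dropped it was 0. In the last fit 0 of all genes passed while the median was -1.17. OVA 72 h replicate 3 had the highest macrophage marker sum of its group (59.9 CPM). Its sum of plasmacytoid dendritic cell markers was also the highest, at 45.7 CPM. That sum was 10.6 to 12.7 CPM in the other OVA libraries and 9.25 to 15.2 CPM with TLR7. Most of it was Ccr9, whose highest value in OVA at 72 h was 33.0 CPM (median 0.341 CPM). Siglech, Ly6d and Tcf4 reached at most 0.592, 3.60 and 12.5 CPM in that group. The part of these markers in the result was not tested.

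With TLR2 at 72 h, 0 members passed and 0% of all genes did. Still, 40 of 42 values were negative, the median was -0.87, and 31 members had an unadjusted p under 0.05, against 11.6% of all genes. DESeq2 called 13, all lower, where it called 0.563% of all genes. The libraries did not overlap for 22 members, all lower with TLR2, against 1.31% of all genes higher and 3.31% lower. Ifi27l2a stood at 232, 291, 227 and 225 CPM with OVA and 44.8, 30.7, 19.1 and 36.2 CPM with TLR2 (log2 fold change -2.90, adjusted p = 0.191), Usp18 at 11.1, 11.5, 9.15 and 9.24 CPM and 2.04, 0.689, 1.08 and 4.79 CPM (log2 fold change -2.24, adjusted p = 0.209), and Mx2 at 4.76, 6.93, 5.37 and 5.14 CPM and 1.18, 0.574, 0.303 and 1.24 CPM (log2 fold change -2.73, adjusted p = 0.191). Isg15 ranged from 14.3 to 18.9 CPM and from 1.19 to 9.32 CPM (log2 fold change -1.93, adjusted p = 0.318), and Irf7 from 19.8 to 46.4 CPM and from 4.90 to 9.81 CPM (log2 fold change -2.06, adjusted p = 0.191). None of these 5 members overlapped between the groups. Without OVA 72 h replicate 4, a middle library, 12 members passed, all lower, where 555 of all genes passed, 461 of them higher. In a fit on these 2 groups alone 1 member passed, where 0.0296% of all genes did. TLR2 at 72 h had 3 middle libraries, which leaves 1 library without them.

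Between the agonists at 72 h, 0 members passed, where 4.8% of all genes did (0.859% higher and 3.94% lower). The median was 0.24, with 27 positive and 15 negative values, and 9 members had an unadjusted p under 0.05, against 26.5% of all genes. DESeq2 called 1 higher and 1 lower, where it called 10.4% of all genes. The largest values among members of at least 5 CPM were those of Usp18 (log2 fold change 1.49, adjusted p = 0.13), Ifi27l2a (log2 fold change 1.16, adjusted p = 0.263) and Oas3 (log2 fold change 1.02, adjusted p = 0.271). Oas3 stood at 25.1, 29.8, 17.7 and 23.3 CPM with TLR2 and 85.8, 41.2, 35.2 and 33.2 CPM with TLR7. The groups did not overlap for Oas3 and 4 other members, all higher with TLR7, against 12.9% of all genes higher and 10.7% lower. Usp18 in TLR7 at 72 h stood at 15.1, 3.55, 2.83 and 3.15 CPM, so its value rested on replicate 1. Without that replicate the members' median was -0.045, and without the shallow libraries it was -0.075. With only these groups fitted, 4 members were higher with TLR7, where 24.8% of all genes passed, and without TLR2 72 h replicate 2 there were 1 higher and 3 lower, where 11.3% did. Neither count is above its background.

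Within each treatment, 24 h and 72 h were then compared, and the members moved in different directions. With OVA, 15 members rose and 1 fell, where 18.6% of all genes passed (8.17% higher, 10.4% lower). With TLR2, 9 rose and 1 fell, where 39% of all genes passed (21.7% higher and 17.4% lower). With TLR7, 1 rose and 21 fell, where 43.2% passed (19% higher and 24.2% lower). The medians were 0.70, 0.36 and -0.77, against 0.09, -0.01 and -0.01 over all genes. For TLR2 the share of members that passed was below the background, so its counts are no result about the members as a list. The libraries of the 2 times did not overlap for 18 members higher and 1 lower with OVA (6.79% and 3.85% of all genes), for 10 and 1 with TLR2 (27% and 24%) and for 0 and 8 with TLR7 (21.9% and 26.6%). For TLR7 the members without overlap were thus below the background in both directions. Its falls past the threshold were above the share of all genes that fell, and its passes in either direction were not far above theirs.

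With OVA the rise was led by Ifi27l2a, at 62.0, 29.3, 78.1 and 11.0 CPM at 24 h and 232, 291, 227 and 225 CPM at 72 h (log2 fold change 2.43, SE 0.68, adjusted p = 0.0333). Every 72 h library lay above every 24 h library, with replicate 2 highest. Mx2 (log2 fold change 1.92, adjusted p = 0.0429), Ifi44 (log2 fold change 1.88, adjusted p = 0.0407), Epsti1 (log2 fold change 1.76, adjusted p = 0.0333) and Rsad2 (log2 fold change 1.61, adjusted p = 0.0341) followed. Ddx58, which encodes the RNA sensor RIG-I, stood at 28.1, 9.27, 26.6 and 7.42 CPM at 24 h and 46.0, 50.5, 62.0 and 31.4 CPM at 72 h (log2 fold change 1.40, SE 0.41, adjusted p = 0.0341), the 2 middle libraries of 24 h lying between the others. Sp100, a nuclear body protein, rose by 1.13 and Stat2 by 0.98 on the log2 scale. The one fall was that of Oas2, at 2.44, 2.86, 2.48 and 2.39 CPM at 24 h and 0.21, 1.27, 1.00 and 0.916 CPM at 72 h (log2 fold change -1.58, SE 0.54, adjusted p = 0.0459). Without the middle libraries 28 members rose and 2 fell, while 48.5% of all genes passed. Without OVA 24 h replicate 2 or 4 the count of 16 was 0, where 1 and 0 of all genes passed. It was also 0 without OVA 72 h replicate 2 or 3, where 0 and 3 of all genes passed. Without all shallow libraries, or with only the OVA libraries fitted, 0 members and 0 of all genes passed. The count was 1 without OVA 72 h replicate 1 (118 of all genes) and 9 with no filter on low counts (4.23%). Without OVA 24 h replicate 1 or 3 or OVA 72 h replicate 4 it was 18, 20 or 21 (4350, 2895 or 4709). B cell marker sums were 94.8 to 245 CPM at 24 h and 5.79 to 44.0 CPM at 72 h.

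With TLR2, Epsti1 rose from 11.1, 12.4, 12 and 5.91 CPM to 49.3, 87.0, 42.8 and 43.5 CPM (log2 fold change 2.42, SE 0.50, adjusted p = 0.00778), Ddx58 from 7.31, 6.65, 8.10 and 3.49 CPM to 21.7, 38.1, 18 and 19.8 CPM (log2 fold change 1.92, SE 0.42, adjusted p = 0.00778) and Oas3 by 2.18 (SE 0.62, edgeR adjusted p = 0.0143). Dhx58 (1.72), Stat2 (1.51), Sp100 (1.12), Tor3a (0.90), Dtx3l (0.87) and Irf9 (0.47) also rose. Ifit2 fell, from 17.0, 20.2, 17.7 and 15.0 CPM to 9.89, 4.21, 9.40 and 8.88 CPM (log2 fold change -1.11, SE 0.27, adjusted p = 0.00831). Replicate 2, the only library of TLR2 at 72 h that was not in the middle, was the highest of its group for Epsti1, Ddx58 and Oas3 and the lowest for Ifit2. Without it 4 members rose and 1 fell, where 9.3% of all genes passed. Without the middle libraries 11 rose and 5 fell, but TLR2 at 72 h was then replicate 2 alone, assumed to vary like the other groups, and 43.4% of all genes passed. Of the 15 members that rose with OVA, 5 also rose with TLR2 (33.3% of the 15 and 55.6% of the 9): Ddx58, Dtx3l, Epsti1, Sp100 and Stat2. Over all genes this share was 65% of the 1190 that rose with OVA and 24.5% of the 3154 that rose with TLR2.

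With TLR7 all 3 IFIT genes, 4 of 5 OAS genes, 4 of 6 sensors, 6 of 10 other effectors, 2 of 3 PARP9-complex genes, Isg15 and Ifi44 fell, and 0 of 3 transcription factors did. Oasl1, an OAS-like protein that limits Irf7 translation, fell from 10.7, 5.82, 3.50 and 3.20 CPM to 0.665, 0, 0.314 and 0.19 CPM (log2 fold change -4.36, SE 0.91, adjusted p = 0.00168); replicate 2 at 72 h had 0 counts, so the fitted value is no bound. Ifit3 fell from 7.03, 4.01, 2.94 and 3.39 CPM to 0.475, 0.248, 0.135 and 0.493 CPM (log2 fold change -3.68, SE 0.88, adjusted p = 0.00366) and Ifit1 from 11.2, 8.39, 5.75 and 3.81 CPM to 1.80, 0.579, 0.673 and 0.758 CPM (log2 fold change -2.97, SE 0.63, adjusted p = 0.00185). Oasl2 fell from 7.56, 7.06, 4.45 and 2.86 CPM to 0.76, 0.579, 0.538 and 0.607 CPM (log2 fold change -3.14, SE 0.58, adjusted p = 0.000929). For each of Oasl1, Ifit3, Ifit1 and Oasl2 every 72 h library lay below every 24 h library, as was so for 26.6% of all genes. Parp14 fell by a smaller amount, from 134, 127, 102 and 75.2 CPM to 57.8, 45.2, 38.8 and 47.5 CPM (log2 fold change -1.21, SE 0.20, adjusted p = 0.000552), as did Zbp1 (-1.03), Bst2 (-0.90) and Eif2ak2, the gene of the kinase PKR (-1.02).

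Isg15 fell from 53.3, 18, 32.0 and 10.5 CPM to 15.3, 3.22, 2.60 and 3.07 CPM (log2 fold change -2.27, SE 0.65, adjusted p = 0.00951), with overlap through replicate 4 at 24 h and replicate 1 at 72 h. Tor3a, a torsin ATPase, was the one member that rose (log2 fold change 0.67, SE 0.26, adjusted p = 0.0409). Stat2 (log2 fold change 0.08, adjusted p = 0.816), Irf9 (log2 fold change -0.15, adjusted p = 0.455) and Oas3 (log2 fold change 0.13, adjusted p = 0.864) did not pass. The count of 22 was 17 to 25 when any 1 library was left out, where 3926 to 6816 of all genes passed. It was 3 rises with 20 falls without the middle libraries (52.1% of all genes). Without all 5 shallow libraries it was 1 fall, where 5 of all genes passed and the median was -1.16. Of the 15 members that rose with OVA, 6 fell with TLR7 (40% of the 15 and 28.6% of the 21): Ifi44, Mx2, Parp9, Rsad2, Trim25 and Trim30a. Over all genes, 27 of the 1190 that rose with OVA fell with TLR7 (2.27%). Among members with a promoter, the ISRE core was held by 9 of the 15 that fell with TLR7 and by 3 of the 16 that did not pass. For the rise with OVA these numbers were 4 of 12 and 8 of 19, and for that with TLR2 3 of 7 and 9 of 23. They were 1 of 6 and 11 of 25 for the members lower with TLR7 than with OVA at 72 h. Between TLR7 and TLR2 at 24 h they were 4 of 12 and 8 of 19, and for the change of the TLR7 effect 3 of 6 and 9 of 25. The direction thus differed between comparisons, and a link was not tested.

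The change of the agonist effect over time was tested directly, as the TLR7-minus-OVA difference at 72 h minus that at 24 h. It was negative for all 42 members, where 44.5% of all genes were positive, with a median of -1.55 against -0.07. It passed for 10, all negative, where 0.81% of all genes passed (0.11% positive and 0.701% negative). They were Ifi44 (-4.86), Mx1 (-3.25), Rsad2 (-2.85), Trim30a (-2.56), Rnf213 (-1.72), Zbp1 (-1.71), Eif2ak2 (-1.61), Parp14 (-1.53), Parp9 (-1.42) and Trim25 (-1.2). For Trim30a the SE was 0.50 and the edgeR adjusted p 0.0216: its TLR7-to-OVA difference was 1.34 at 24 h and -1.22 at 72 h, with group means of 174 against 68.5 CPM and then 67.1 against 156 CPM. For Trim25 the adjusted p was 0.0165 (SE 0.20), with 0.37 at 24 h and -0.83 at 72 h. The smallest changes were those of Tor3a (-0.02) and Ifi35 (-0.18).

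The count of 10 was 0 without OVA 72 h replicate 2, TLR7 72 h replicate 4 or the shallow libraries. In these fits 0, 1 and 0 of all genes passed. Without OVA 24 h replicate 1, 2, 3 or 4 it was 6, 2, 4 or 4, where 79, 28, 19 or 85 did. It was 5 and 5 without OVA 72 h replicates 3 and 4 (65 and 59), and 3 without TLR7 72 h replicate 2 (30). Without TLR7 24 h replicate 1, 2, 3 or 4 it was 4, 5, 2 or 11 (42, 44, 23 or 181). Without OVA 72 h replicate 1 or TLR7 72 h replicate 1 or 3 it was 13, 7 or 9 (752, 28 or 247). It was 10 without the middle libraries (0.285% of all genes), where the median was -1.90. With another scaling of library sizes (RLE) it was 5 (0.495%). For the TLR2 effect the change passed for 0 of 42 members with edgeR, where 0% of all genes passed. DESeq2 called 0, 4 members had an unadjusted p under 0.05, and the median was -0.29. The 2 effects share the OVA libraries.

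**Figure D4:**
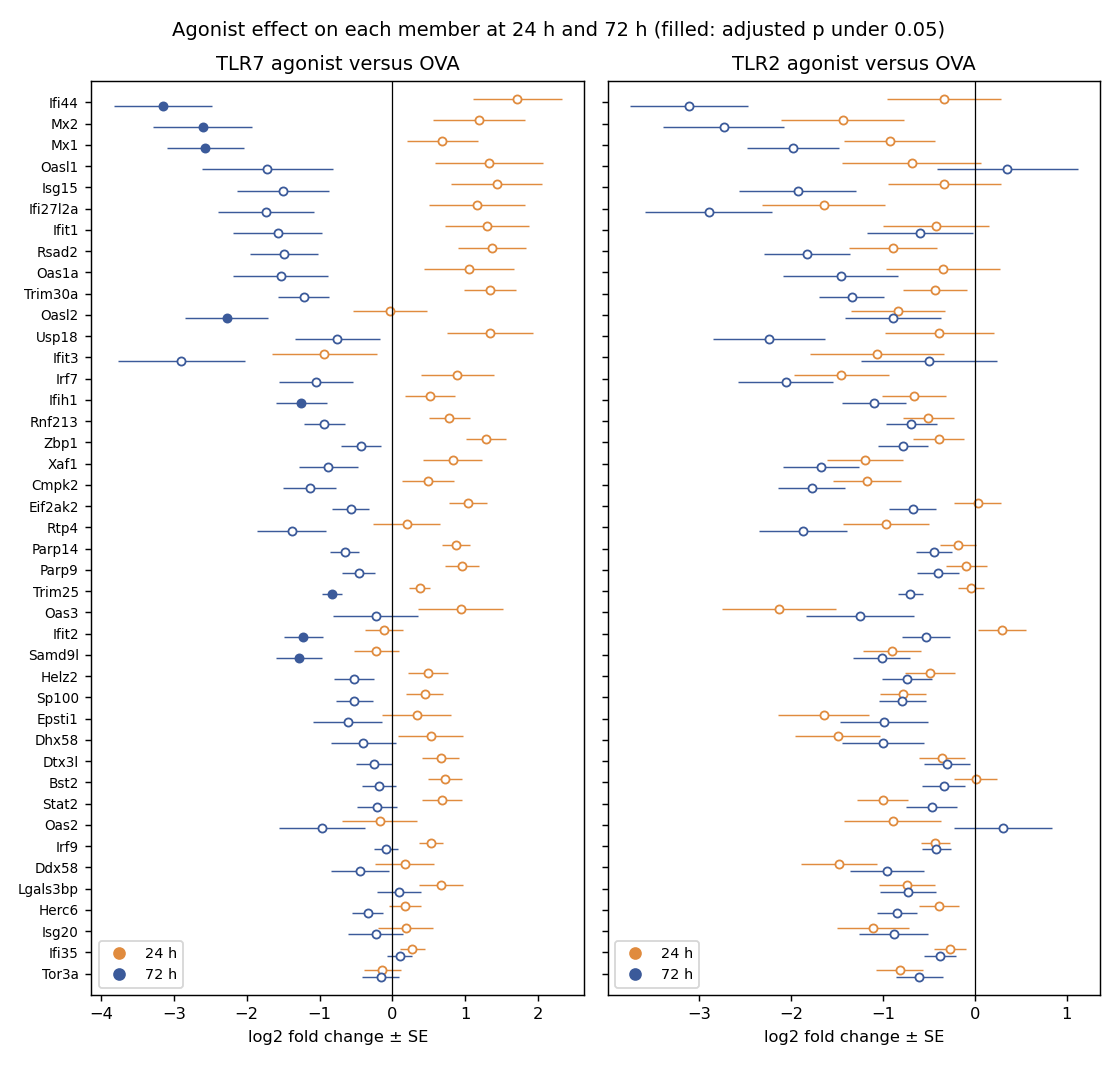
Log2 fold change against OVA (horizontal axes, with SE whiskers) of each member at 24 h (orange) and 72 h (blue), for TLR7 (left) and TLR2 (right); filled points passed at an adjusted p under 0.05. For TLR7 the blue point lies left of the orange one for every member, and only 8 points, all at 72 h, are filled; for TLR2 no point is filled.

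The genes upstream of the members were counted from lists of the pathway. No type I interferon gene could be tested: the 18 listed ligand genes together had 0 to 11 counts per library, with 17, 23 and 11 counts over the OVA, TLR2 and TLR7 groups at 24 h and 7, 6 and 7 at 72 h. Of the 10 receptor and transducer genes tested, 6 rose and 0 fell with time in OVA and in TLR2, and 2 rose and 2 fell in TLR7, beside 18.6%, 39% and 43.2% of all genes that passed. Ifnar1 stood at 64.3 ± 20.9 CPM in OVA at 24 h and 148 ± 34.7 CPM at 72 h (SD, n = 4 each), a log2 difference of 1.2 (SE 0.29, edgeR adjusted p = 0.0333), and Ifnar2 at 28.5 ± 6.34 and 49.5 ± 8.52 CPM (log2 fold change 0.79, adjusted p = 0.0333). Jak2, which encodes a kinase of the interferon-gamma receptor, was the one gene of that list that was higher with TLR7 than with OVA at 24 h (log2 fold change 0.95, SE 0.19, adjusted p = 0.0409).

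Socs1, the inhibitor of JAK kinases, rose with time in TLR7, from 11.5 ± 2.39 CPM to 27.1 ± 4.11 CPM (log2 fold change 1.23, SE 0.32, adjusted p = 0.00587). Against OVA at 72 h it did not pass (log2 fold change 0.90, adjusted p = 0.116). Irf8 stood at 72.1 ± 9.06 CPM with TLR7 at 72 h, lower than with OVA (log2 fold change -0.90, adjusted p = 0.0438) and than with TLR2 (log2 fold change -1.15, adjusted p = 0.0183). Irf1 was lower with TLR7 than with TLR2 at 72 h (log2 fold change -0.60, adjusted p = 0.0389). Transcripts of the receptor Tlr7 itself were lower with the TLR7 agonist than with OVA at 72 h, at 0.918 ± 0.394 CPM against 3.90 ± 1.38 CPM (log2 fold change -2.15, SE 0.58, adjusted p = 0.0421). Irf8 and Tlr7 are also expressed by B cells, whose markers summed to 9.78 to 15.6 CPM in TLR7 and 5.79 to 44.0 CPM in OVA at 72 h; their part was not tested. In 5 members, Helz2, Ifi35, Isg20, Rtp4 and Usp18, none of the 11 tests passed. Ifi35, a partner of other interferon-induced proteins, was the steadiest of them, with group means between 36.1 CPM (TLR2 at 24 h) and 52.6 CPM (TLR7 at 24 h). Usp18, which removes ISG15 and restrains the receptor, ranged in group means from 2.15 CPM (TLR2 at 72 h) to 12 CPM (TLR7 at 24 h). Its libraries within TLR7 at 24 h ran from 4.38 to 19.1 CPM.

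Outside the 42 members, 68 further interferon-stimulated genes were tested. Between TLR7 and TLR2 at 24 h, 8 of them were higher and 1 lower (median 0.58), where 1.24% of all genes passed. Between TLR7 and OVA at 72 h 1 was higher and 7 were lower (median -0.40), where 3.62% passed, and at 24 h 0 passed with edgeR, 18 having an unadjusted p under 0.05. Over time 22 rose and 4 fell with OVA, 26 rose and 4 fell with TLR2, and 8 rose and 20 fell with TLR7. Of all genes 18.6%, 39% and 43.2% passed in these comparisons. Both directions together, the counts with TLR2 and TLR7 were near these shares.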

How the data were processed

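The authors deposited expected counts per gene, 1 table per library and not scaled between libraries; 28.7% of values above 0 are not whole numbers. The submitters' processing notes name STAR, RSEM and edgeR, with GRCm38; versions, annotation release and strand setting are not stated there. Counts were rounded to whole numbers. edgeR 4.0.16 (R 4.3.3, limma 3.58.1) fitted 1 quasi-likelihood model to all 24 libraries with a term per group (18 residual degrees of freedom), after filterByExpr (minimum count 10, minimum total 15; 14560 genes kept) and TMM scaling. Benjamini-Hochberg adjustment ran over all genes tested, and a gene passed at an adjusted p under 0.05. The common biological coefficient of variation was 0.321. SEs were taken as the absolute log2 fold change over the square root of F. CPM used TMM-scaled library sizes, and log2 CPM a prior count of 2. Contrasts were 9 between pairs of groups and 2 of the change in agonist effect from 24 h to 72 h. Symbols were matched to the tables' own names, and lengths and positions came from GENCODE M21 on GRCm38. The scripts were tested on simulated data. No 2 libraries of a group were alike within sampling noise (lowest chi-square per degree of freedom 4.58).

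The members, the pathway and marker lists and the naming rule were chosen with earlier results of these data known. The rule gives per-library values for 17 set members and for up to 6 passing members of each comparison with the largest absolute log2 fold change. Where none passed, it gives the 3 largest with a mean of at least 5 CPM. The text gives part of these, and 1 pathway gene set for naming is not reported here. Other members named were chosen after their values were seen. Alternatives were RLE scaling, library size only, no filter, the replicate number as a block, a fit on the groups compared, DESeq2 1.42.0, and leaving out the middle libraries, the shallow libraries or each library in turn. Floors of 3 counts per library cover counting error only.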

Additional observations from a re-analysis of the deposited data

Results flagged for a closer look

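Within each group of 4 libraries, the highest or lowest library of a member, or of the module's score, was examined for a gap to its nearest neighbour that exceeded Dixon's critical value as a share of the group's range. This was met in 25 of 234 groups examined, where chance gives about 1 in 20, and 15 of the 25 concerned TLR7 72 h replicate 1, the library with the lowest total (10506711 counts). In that library the score was 4.23, against 3.26 to 3.29 in replicates 2 to 4. It stood apart upward for Rsad2 (5.89 CPM), Isg15 (15.3 CPM), Irf7 (29.6 CPM), Usp18 (15.1 CPM), Trim30a (98.0 CPM), Mx2 (2.47 CPM), Bst2 (63.9 CPM), Lgals3bp (94.1 CPM), Ifi44 (1.14 CPM), Irf9 (81.7 CPM), Ifit1 (1.80 CPM), Oas3 (85.8 CPM), Mx1 (2.28 CPM) and Oas1a (2.94 CPM).

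In the other groups 10 values stood apart. In OVA at 24 h these were Oasl2 in replicate 2 (9.91 CPM, against 3.82 to 4.33 CPM) and Rsad2 in replicate 4 (1.15 CPM, against 2.32 to 2.56 CPM). In OVA at 72 h they were Ifi27l2a (291 CPM) and Trim30a (224 CPM), both highest in replicate 2. In TLR2 at 24 h Ifi44 was highest in replicate 3 (0.937 CPM). In TLR2 at 72 h Epsti1 was highest in replicate 2 (87.0 CPM) and Ifit1 in replicate 4 (4.61 CPM), and Rnf213 (113 CPM) and Rsad2 (0.823 CPM) were lowest in replicate 3. In TLR7 at 24 h Trim30a was lowest in replicate 4 (91.1 CPM, against 193 to 206 CPM).

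The TLR7 effect against OVA differed between 72 h and 24 h, by a test of the difference itself (edgeR), for 10 members. The differences on the log2 scale were -4.86 for Ifi44, -3.25 for Mx1, -2.85 for Rsad2, -2.56 for Trim30a, -1.72 for Rnf213, -1.71 for Zbp1, -1.61 for Eif2ak2, -1.53 for Parp14, -1.42 for Parp9 and -1.2 for Trim25.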

How the results depend on the processing

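Counts of members past the threshold moved with the libraries and the tool. Directions were followed for the members that passed in each comparison with all libraries. Where none passed, the 3 with the largest changes were followed, for pairs of groups among those of at least 5 CPM. They were picked for these changes and refitted on much the same libraries, so changes of sign were unlikely from the start. Over these members and the alternatives other than leaving out each library in turn, 625 log2 fold changes kept their direction and side of the threshold. Another 10 passed only there, 148 no longer passed and 1 changed sign (Oas3, TLR2 against OVA at 24 h, 0.22 without the middle libraries). The members' median changed sign only for TLR7 against TLR2 at 72 h, to -0.075 without the shallow libraries and -0.045 without TLR7 72 h replicate 1 (-0.045 to 0.37 with each library left out). Without the shallow libraries the counts were 0 for TLR7 against TLR2 at 24 h (17 with all libraries), TLR7 against OVA at 72 h (8), OVA over time (16) and the change of the TLR7 effect (10), where 0 of all genes passed. For TLR7 over time the count was 1 (22 with all libraries), where 5 of all genes passed. Without the middle libraries they were 11 for TLR7 against OVA at 24 h, 30 for OVA over time and 16 for TLR2 over time, the last with 1 library of TLR2 at 72 h, assumed to vary like the other groups. DESeq2 called 5 for either agonist against OVA at 24 h, 31 for TLR7 against TLR2 at 24 h, 13 for either agonist against OVA at 72 h and 2 between agonists at 72 h. In those fits 1.67% (TLR7) and 2.37% (TLR2) of all genes passed against OVA at 24 h, and 6.98% between the agonists. At 72 h the shares were 6.41% (TLR7), 0.563% (TLR2) and 10.4% (between the agonists). Fitting only the groups compared gave 1 for either agonist against OVA at 72 h, 4 between agonists at 72 h, 0 for OVA over time and 3 for the change of the TLR7 effect. Of all genes 0.219% (TLR7) and 0.0296% (TLR2), 24.8%, 0% and 0.155% passed in these fits. RLE gave 1 for TLR7 against OVA at 24 h (0.247% of all genes) and 5 for the change of the TLR7 effect (0.495%). With no filter 9 passed for OVA over time (4.23%). The causes were not tested.

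With each library left out in turn, the counts ran from 0 to 6 for TLR2 against OVA at 24 h, 0 to 3 for TLR7 against OVA at 24 h, 0 to 24 for TLR7 against TLR2 at 24 h, 0 to 12 for TLR2 against OVA at 72 h, 1 to 10 for TLR7 against OVA at 72 h, 0 to 4 between agonists at 72 h, 0 to 21 for OVA, 5 to 11 for TLR2 and 17 to 25 for TLR7 over time, 0 to 0 for the change of the TLR2 effect and 0 to 13 for that of the TLR7 effect. In these fits the counts of all genes ran, against OVA at 24 h, from 0 to 546 (TLR2) and 0 to 146 (TLR7). Against OVA at 72 h they ran from 0 to 555 (TLR2) and 92 to 1370 (TLR7). Between the agonists they were 0 to 629 at 24 h and 0 to 1667 at 72 h. Over time they were 0 to 4709 (OVA), 1371 to 5200 (TLR2) and 3926 to 6816 (TLR7). For the change of the TLR7 effect they were 0 to 752, and for that of the TLR2 effect 0 throughout. Over all tested genes and both times, replicate numbers shared across groups showed no clear pairing. Same-numbered libraries' deviations from their group means correlated at -0.62 to 0.52, over 0.1 in 21 of 60 pairs. Of 24 libraries, 8 correlated best with their own number. At 24 h the members' score nevertheless fell in the same order of replicates in every group: 3, 1, 2 and 4. It was 4.21, 4.09, 3.75 and 3.14 in OVA and 3.57, 3.43, 2.90 and 2.30 in TLR2. In TLR7 it was 4.86, 4.76, 4.22 and 3.94. At 72 h the orders differed, and pairing within 24 h was not tested. With the replicate number as a block the counts were 18 for TLR7 against TLR2 at 24 h, 7 for TLR7 against OVA at 72 h, 20, 15 and 23 for OVA, TLR2 and TLR7 over time, 11 for the change of the TLR7 effect and 0 elsewhere. The shares of all genes that passed were, in the same order, 0.859%, 2.69%, 19.1%, 41.4%, 44.1% and 0.659%. Depth limits the members near 1 CPM, such as Ifi44 and Mx2, where 3 counts are 0.111 to 0.286 CPM.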

Other observations

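Genes linked to interferon-gamma were counted from a list of 20, chosen with earlier results known. With TLR7, 3 rose and 11 fell between 24 h and 72 h (43.2% of all genes passed), with a median of -0.81. The 11 were Ciita, Cxcl9, Gbp2, Gbp4, Gbp5, Gbp6, Ifng, Iigp1, Irgm1, Tgtp1 and Tgtp2, and those that rose were Psmb8, Psmb9 and Tap2, of the immunoproteasome and peptide transport. With TLR2, 7 rose and 2 fell (39% of all genes passed), and with OVA 4 rose and 3 fell (18.6%). Between TLR7 and TLR2 at 72 h, 0 were higher and 5 lower, among them Cxcl9, which encodes a T cell chemokine, and Ifng (4.8% of all genes passed).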
